A study of Mus musculus with 6 samples.

Results

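Expression of *Serpine3* and 6 related serpin genes (*Serpine2*, *Serpinf1*, *Serpinh1*, *Serping1*, *Serpini1* and *Serpinb6a*) was examined in retinas of 2-month-old control and *Yap* cKO mice. The 7 genes were matched by symbol among the 55421 genes of the count table, which lists 68 serpin genes in all. The list was chosen by the measured difference of *Serpine3* between the genotypes, joined by relatives of the gene, with results for these retinas already known, so the differences of the 7 genes between genotypes are a description. No p-value is given for them, and whether 1 of them meets the criteria for a call supports nothing. Control retinas came from Yap fl/fl mice and *Yap* cKO retinas from Yap fl/fl mice carrying RaxCreERT2, with 3 retinas in each group (YR612, YR613 and YR615 for control, YR711, YR713 and YR714 for *Yap* cKO). Values of single retinas follow that order throughout. Both groups carry the floxed allele and received 4-hydroxytamoxifen at postnatal days 10 and 14, which activates the Cre recombinase in the animals that have it. The *Rax* promoter drives this Cre, per the study in Müller glia and in the non-pigmented epithelium of the ciliary body, and other retinal cells are not its target. No group carried the Cre without the floxed allele.

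Serpins are a large family of proteins that share a common fold. The inhibitory members offer an exposed reactive centre loop as bait to a serine or cysteine protease, which cuts it and is then trapped in an inactive complex with the serpin. Other members have lost this activity and act as hormone carriers, chaperones or signalling molecules. In the retina and eye they are known for restraining the plasminogen activators and thrombin around neurons and glia, for limiting complement activation, and for holding back vessel growth through pigment epithelium-derived factor, the product of *Serpinf1*.

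Libraries of polyadenylated RNA gave between 24261799 and 35067068 counted fragments per retina, and 16575 genes passed the filter on low counts. The targeted gene, *Yap1* (ENSMUSG00000053110), had between 9.48 and 9.83 TPM in control and between 3.76 and 3.99 TPM in *Yap* cKO retinas. TPM is a fragment count scaled to exonic length and to a fixed total per retina, so that levels can be compared between genes. The retinal identity of the samples was clear, since 4 rod genes (*Nrl*, *Gnat1*, *Sag* and *Pde6b*) summed to between 23900 and 26200 TPM in every retina. A gene counted as called when its adjusted p from edgeR (quasi-likelihood test, Benjamini-Hochberg adjustment) reached 0.05 or less, its level changed at least 1.5-fold and 1 group averaged 5 TPM or more. Differences are given as log2FC, the log2 of the fold change of *Yap* cKO over control, with its standard error (SE). For *Yap1* the log2FC was -1.36 (SE 0.09, edgeR adjusted p = 0.000282).

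*Serpine3* carried the largest difference, and the RefSeq window around its start, from 250 bases before to 50 bases after, is shown for that reason, beside the 1 window of the 7 genes that holds a match to the TEAD motif. TEAD proteins are the DNA-binding partners of YAP, and their core motif was searched as GGAATG on both strands (CATTCC on the other). A window was found for 6 of the 7 genes, with 2 windows for *Serpinb6a* and none matched for *Serping1*. The *Serpine3* window lies at chr14:62663417-62663716 (GRCm38.p6, plus strand) and the *Serpinb6a* window at chr13:34002745-34003044 (minus strand). Both are written 5′ to 3′ in lower case, and capitals mark the match.
Serpine3: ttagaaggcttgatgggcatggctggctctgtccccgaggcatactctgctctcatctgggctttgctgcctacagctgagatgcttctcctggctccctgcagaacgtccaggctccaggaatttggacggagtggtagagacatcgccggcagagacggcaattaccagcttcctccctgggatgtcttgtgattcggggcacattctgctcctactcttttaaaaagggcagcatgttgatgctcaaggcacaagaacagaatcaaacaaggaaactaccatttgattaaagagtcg
Serpinb6a: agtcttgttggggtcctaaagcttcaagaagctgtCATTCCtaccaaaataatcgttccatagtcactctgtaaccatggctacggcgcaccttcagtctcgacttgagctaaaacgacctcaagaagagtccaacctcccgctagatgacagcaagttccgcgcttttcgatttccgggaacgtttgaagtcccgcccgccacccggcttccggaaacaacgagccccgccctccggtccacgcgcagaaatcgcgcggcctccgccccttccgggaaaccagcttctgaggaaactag
The *Serpine3* window holds no match. Of the 7 windows 1 holds the motif, and so do 14.7% of the 32851 promoter windows of the RefSeq table. A match is only a run of letters, and its absence from 300 bases says nothing about sites elsewhere.

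Of the 7 serpins, all passed the filter on low counts. *Serpine3*, whose difference led to the list, was higher and *Serping1* lower in *Yap* cKO retinas, and these 2 are the members that fulfil the criteria for a call. Over all tested genes 0.796% were called, 0.211% higher and 0.585% lower, and 1.49% had an adjusted p of at most 0.05. For 4 of the 7 genes the 2 groups did not overlap, 1 higher and 3 lower in *Yap* cKO, against 24.3% of all tested genes (15.2% higher and 9.04% lower). Nothing is read from these shares, since the list was made with the comparison known. The median log2FC of the 7 genes was -0.10, beside 0.00 over all tested genes. Among the other 5 genes, log2FC values lay between -0.39 and 0.16.

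**Figure D1:**
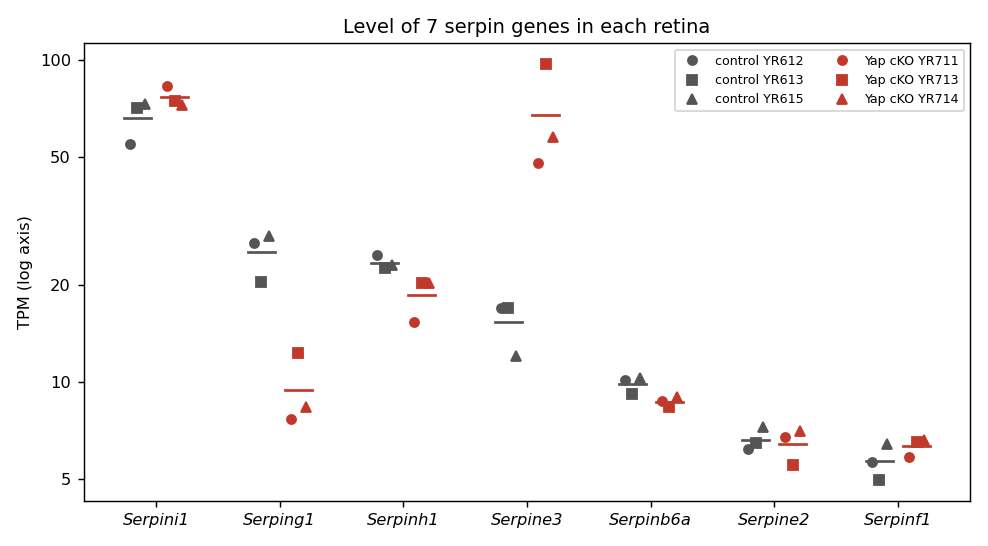
TPM (log axis) of the 7 serpins in each of the 6 retinas, with control retinas in grey and *Yap* cKO retinas in red, 1 symbol per retina and a line at each group's mean. *Serpine3* lies between 12 and 17 TPM in control and between 48.0 and 97.0 TPM in *Yap* cKO retinas, while *Serping1* falls from at least 20.4 TPM to at most 12.3 TPM.

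Clade E holds the inhibitors of the plasminogen activators. *Serpine3* (ENSMUSG00000091155, chromosome 14 of GRCm38, 62663667 to 62692243, plus strand) is a little-studied gene of this clade. The control retinas stood at 16.9, 17 and 12 TPM and the *Yap* cKO retinas at 48.0, 97.0 and 57.5 TPM. Every *Yap* cKO retina lay above every control retina, and YR713 was the highest by a wide margin. The fragments behind these levels numbered 156, 163 and 129 in the control retinas and 430, 1184 and 551 in the *Yap* cKO retinas. The means were 15.3 ± 2.85 TPM (SD, n = 3) and 67.5 ± 26.0 TPM (SD, n = 3), a log2FC of 2.09 (SE 0.26), or 4.27-fold higher. Relative to their means, the spread was wider among the *Yap* cKO retinas (coefficient of variation 38.5%) than among the control retinas (18.7%). Without YR713 the log2FC of *Serpine3* was 1.74, and over all fits that left out 1 retina it stayed between 1.74 and 2.29. Without control YR615 it did not meet the criteria for a call.

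Genes at the *Serpine3* locus were also measured. *Ints6*, a subunit gene of the Integrator complex, overlaps it on the opposite strand and shares 348 exonic bases with it. The counts were made by strand, and how many fragments were assigned to the wrong strand was not tested. *Ints6* had 647, 899 and 965 counts in control and 834, 1218 and 833 counts in *Yap* cKO retinas, a log2FC of 0.09 (SE 0.10, edgeR adjusted p = 0.629). Its retinas overlapped between the groups, and so did those of *Fam124a*, the other neighbour within 100 kb that was tested, which had between 178 and 240 counts in control and between 187 and 260 counts in *Yap* cKO retinas. The *Fam124a* log2FC was 0.00 (SE 0.13, edgeR adjusted p = 0.990). The other 4 annotated genes in this window had at most 1 count in any retina.

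*Serpine2* (ENSMUSG00000026249, chromosome 1, 79794197 to 79861180) encodes protease nexin-1, a glia-derived inhibitor of thrombin and the plasminogen activators. The control retinas stood at 6.18, 6.43 and 7.22 TPM and the *Yap* cKO retinas at 6.73, 5.51 and 7.01 TPM. The groups overlapped, and the log2FC was -0.10 (SE 0.12). The ratio of *Serpine3* to *Serpine2* in TPM was between 1.66 and 2.73 in control retinas and 7.14, 17.6 and 8.20 in *Yap* cKO YR711, YR713 and YR714.

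*Serping1* (ENSMUSG00000023224, chromosome 2, 84765387 to 84775444) encodes the C1 inhibitor, which blocks the proteases that start the classical complement pathway and the contact pathway. The control retinas stood at 27.0, 20.4 and 28.4 TPM and the *Yap* cKO retinas at 7.68, 12.3 and 8.37 TPM. Every *Yap* cKO retina was below every control retina, and YR713 was the *Yap* cKO retina closest to the controls. The means were 25.3 ± 4.26 and 9.43 ± 2.47 TPM (SD, n = 3), a log2FC of -1.47 (SE 0.20), or 2.77-fold lower. Over the 6 fits that left out 1 retina, the log2FC of *Serping1* lay between -1.71 and -1.34. Without control YR612 or control YR615 it did not meet the criteria for a call.

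*Serpini1* (ENSMUSG00000027834, chromosome 3, 75557547 to 75643495) encodes neuroserpin, the neuronal inhibitor of tissue plasminogen activator. It was the most abundant of the 7 serpins in both groups. Neuroserpin transcripts stood at 54.7, 70.9 and 72.7 TPM in the control retinas and in the *Yap* cKO retinas at 82.7, 74.6 and 72.2 TPM. *Yap* cKO YR714 lay below control YR615, so the groups overlapped, and the log2FC was 0.16 (SE 0.10).

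*Serpinh1* and *Serpinf1* encode serpins that do not act as protease inhibitors. *Serpinh1* (ENSMUSG00000070436, chromosome 7, 99345376 to 99353239) encodes HSP47, a chaperone of the endoplasmic reticulum that binds folding procollagen. The control retinas stood at 24.8, 22.5 and 23.1 TPM and the *Yap* cKO retinas at 15.3, 20.2 and 20.3 TPM. The highest *Yap* cKO retina was below the lowest control retina, with YR711 the lowest of all. The log2FC of *Serpinh1* was -0.39 (SE 0.14), under the fold change minimum. *Serpinf1* (ENSMUSG00000000753, chromosome 11, 75409769 to 75422701), the gene of pigment epithelium-derived factor, stood at 5.65, 4.95 and 6.40 TPM in control and at 5.84, 6.48 and 6.58 TPM in *Yap* cKO retinas. The groups overlapped, and its log2FC was 0.09 (SE 0.16).

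*Serpinb6a* (ENSMUSG00000060147, chromosome 13, 33917918 to 34002794) encodes an inhibitor that stays inside the cell. The control retinas stood at 10.1, 9.14 and 10.3 TPM and the *Yap* cKO retinas at 8.71, 8.35 and 8.98 TPM. The *Yap* cKO retinas lay just below the control retinas, and the log2FC was -0.24 (SE 0.11). *Serpinb6a* has close copies in the same cluster, and fragments that map to several places were not counted, so its level is uncertain to that extent. Exons of genes on the other strand share 1587 of its exonic bases.

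The order of the 7 genes by level differed between the groups. In control retinas it ran *Serpini1* (66.1 TPM), *Serping1* (25.3), *Serpinh1* (23.5), *Serpine3* (15.3), *Serpinb6a* (9.83), *Serpine2* (6.61) and *Serpinf1* (5.67 TPM, all means of 3 retinas). Here the ranges of *Serping1* and *Serpinh1*, and those of *Serpine2* and *Serpinf1*, overlapped over the 3 retinas, although *Serpine2* was above *Serpinf1* within each control retina. In *Yap* cKO retinas *Serpine3* moved up to the second place at 67.5 TPM, behind *Serpini1* at 76.5 TPM, and *Serping1* moved down to the fourth at 9.43 TPM. The ranges of *Serpini1* and *Serpine3*, of *Serping1* and *Serpinb6a*, and of *Serpine2* and *Serpinf1* overlapped. In YR713 *Serpine3* exceeded *Serpini1*, with a ratio of 1.30, while the ratio was 0.580 in YR711 and 0.796 in YR714 and at most 0.308 in a control retina. *Serpine3* made up between 7.48% and 11.6% of the summed TPM of the 7 genes in control retinas and between 27.4% and 43.2% in *Yap* cKO retinas. That sum was between 145 and 160 TPM in control and between 175 and 224 TPM in *Yap* cKO retinas.

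Of the other 61 serpin genes, 8 passed the filter on low counts and 53 did not. Among these 53, 33 had no fragment in any retina, and the highest sum over the 6 retinas was 29, for *Serpind1*. Of the 8 tested genes 1 was called, which was *Serpina3n*, lower in *Yap* cKO retinas, beside 0.585% of all tested genes called in that direction. The 8 genes had a median log2FC of -0.10.

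*Serpina3n* (ENSMUSG00000021091, chromosome 12, 104406729 to 104414329) is an acute-phase inhibitor and a widely used marker of reactive astrocytes. Its level was 34.1, 19.4 and 25.6 TPM in the control retinas and 9.25, 14.5 and 8.01 TPM in the *Yap* cKO retinas. The groups did not overlap, and as for *Serping1* the lowest control retina was YR613 and the highest *Yap* cKO retina was YR713. The log2FC of *Serpina3n* was -1.37 (SE 0.26, edgeR adjusted p = 0.0412). Leaving out 1 retina ended the call in 3 cases, namely control YR612 (edgeR adjusted p = 0.160), control YR615 (0.156) and *Yap* cKO YR711 (0.0974). The gene lies in a cluster of near copies, and fragments that map to several of them were not counted.

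*Serpinb8*, an intracellular inhibitor, was named after its values were seen, because it passed the adjusted p but not the TPM minimum. It stood at 1.14, 1.55 and 1.52 TPM in control and at 2.48, 3.36 and 2.66 TPM in *Yap* cKO retinas. The lowest *Yap* cKO retina exceeded the highest control retina, and the log2FC was 0.96 (SE 0.19, edgeR adjusted p = 0.0423). It passed the adjusted p in 2 of the 6 fits without 1 retina, which lacked control YR613 or *Yap* cKO YR714. *Serpinb9*, an inhibitor of granzyme B and the 1 other tested serpin above 5 TPM, had 7.18 ± 0.810 and 6.50 ± 0.916 TPM (SD, n = 3), a log2FC of -0.20 (SE 0.15, edgeR adjusted p = 0.436).

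**Figure D2:**
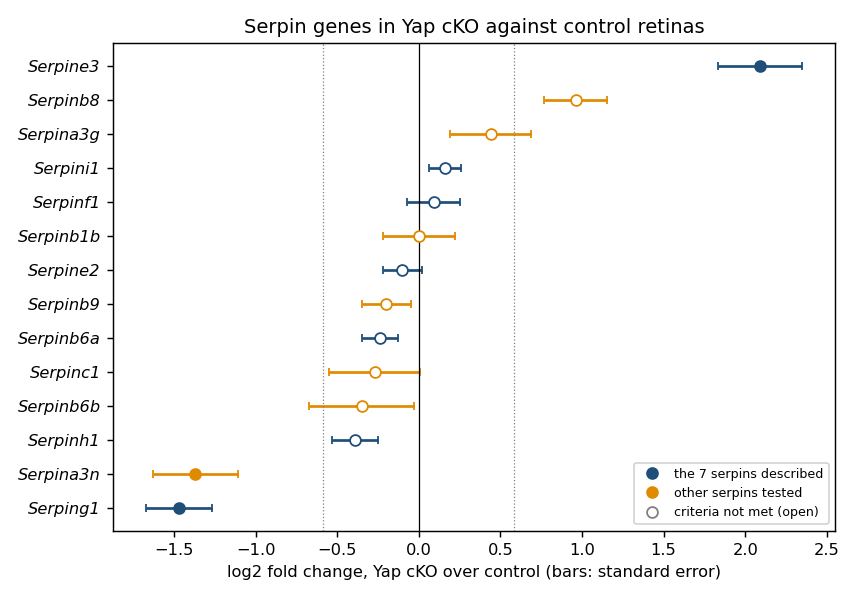
Log2 fold change of *Yap* cKO over control retinas for 14 of the 15 serpins that passed the filter on low counts, with bars for the standard error and dotted lines at a fold change of 1.5. Filled symbols met every criterion, which for the 7 serpins described is no test, and are *Serpine3* (2.09), *Serpina3n* (-1.37) and *Serping1* (-1.47).

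The 5 genes whose levels over the 6 retinas were nearest to those of *Serpine3* were sought among 12215 other genes with at least 5 TPM in 1 group. Likeness was the root mean square difference of log2 CPM (counts scaled to library size), each gene centred on its control mean. *Pde10a*, a phosphodiesterase, was nearest, with a difference of 0.378, followed by the adaptor gene *Shc3* (0.564), the oxytocin receptor gene *Oxtr* (0.575), the stanniocalcin gene *Stc2* (0.636) and the deiodinase gene *Dio2* (0.688). *Serpine3* lay 1.58, 2.60 and 1.89 above its control mean in *Yap* cKO YR711, YR713 and YR714 on this log2 scale. *Pde10a* lay 1.44, 1.91 and 1.51 above its own, with YR713 again the highest. *Oxtr* was instead highest in YR714, at 2.85, and *Dio2* stood at only 0.38 in YR711. These genes were chosen for a pattern that includes the difference between the groups, so they are a description and were given no test.

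**Figure D3:**
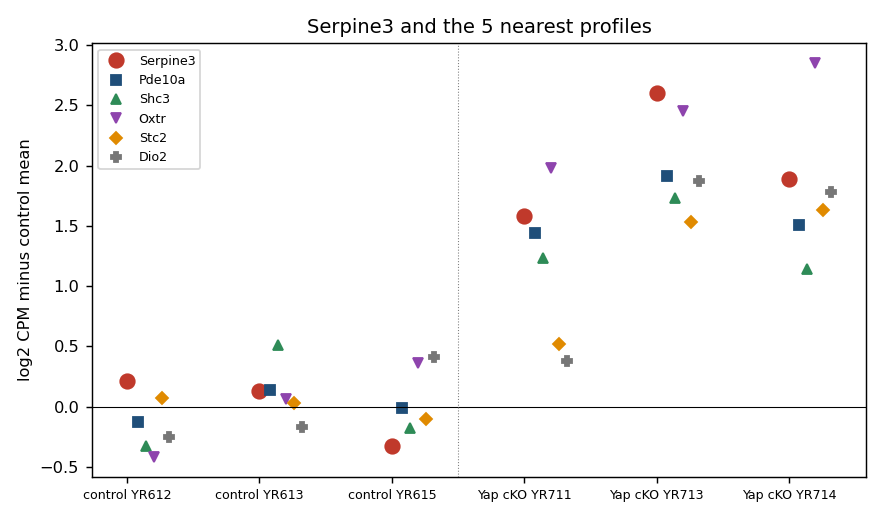
Log2 CPM minus the gene's control mean in each retina for *Serpine3* (large red circles) and the 5 genes with the nearest profiles, with a dotted line between the control and the *Yap* cKO retinas. *Serpine3* stands at 1.58, 2.60 and 1.89 in the *Yap* cKO retinas and *Pde10a* follows it most closely, at 1.44, 1.91 and 1.51.

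Genes of the proteases, clients and receptors that these serpins act on were examined in 4 lists. Of 69 genes 61 were tested, and 1 of them was called (1.64%, beside 0.796% of all tested genes). Their median log2FC was -0.08. In the list of plasminogen activation and thrombin signalling, 16 of 18 genes were tested and 0 were called by edgeR's quasi-likelihood test, as by its likelihood ratio test, DESeq2 or limma-voom, with 2 genes at an unadjusted p below 0.05. *Plat*, the gene of tissue plasminogen activator, stood at 8.94, 7.34 and 8.99 TPM in control and at 8.50, 11.1 and 9.03 TPM in *Yap* cKO retinas, and the groups overlapped (log2FC 0.12, SE 0.14). *Plau*, the gene of urokinase, had at most 1.48 TPM in any retina. *Lrp1*, a receptor that clears complexes of serpins with proteases, had a log2FC of 0.15 (SE 0.12, edgeR adjusted p = 0.474), which turned to -0.14 with a correction for gene length.

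In the list of the complement and contact systems, which holds proteases that *Serping1* restrains and also other components such as *C3*, the C1q genes and the bradykinin receptors, 12 of 18 genes were tested and 0 were called by edgeR's quasi-likelihood test or by the 3 other tests, with 2 genes at an unadjusted p below 0.05. Of the 12 genes 10 were lower in *Yap* cKO retinas, with a median log2FC of -0.19. For 3 of the 12 the groups did not overlap, beside 24.3% of all tested genes. These were *C1ra* and *F11* (log2FC -1.26, edgeR adjusted p = 0.164), which were lower, and *Masp2* (0.54, edgeR adjusted p = 0.333), which was higher. *F11* and *Masp2* were named after their values were seen. *C1ra*, which encodes the C1r protease, stood at 1.58, 1.32 and 1.48 TPM in control and at 0.998, 0.694 and 0.393 TPM in *Yap* cKO retinas. The groups did not overlap, and the log2FC of -1.14 (SE 0.31) had an edgeR adjusted p of 0.0986. *C1s1*, its partner C1s, stood at 1.5, 1.21 and 2.08 TPM in control and at 1.2, 1.4 and 0.889 TPM in *Yap* cKO retinas, and its groups overlapped (log2FC -0.51, SE 0.27). *Masp1*, a protease of the lectin pathway, had at most 14 counts in any retina and was not tested.

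In the list of collagen folding, around the client proteins and partners of HSP47, all 25 genes were tested and 1 was called, *Crtap*, a subunit of the prolyl 3-hydroxylation complex. *Crtap* stood at 10.9, 12.1 and 12 TPM in control and at 8.22, 7.13 and 6.94 TPM in *Yap* cKO retinas, with no overlap. Its log2FC was -0.71 (SE 0.13, edgeR adjusted p = 0.0347). The call was lost with the correction for gene length (-0.59, adjusted p = 0.0571), and when YR612, YR615, YR711 or YR713 was left out (edgeR adjusted p between 0.0502 and 0.174). *P4hb*, *Ppib* and *Fkbp10*, other helpers of procollagen folding, had log2FC values of -0.08, -0.08 and -0.42 with edgeR adjusted p-values from 0.116 to 0.675. Of the 25 genes 11 were higher and 14 lower in *Yap* cKO retinas, with a median log2FC of -0.01. *Col4a1* (log2FC 0.23), *Col4a2* (0.30), *P3h2* (0.36) and *Plod2* (0.13) were higher without overlap and not called. Their edgeR adjusted p-values ran from 0.106 to 0.505, and they too were named after their values were seen. *Col1a2* and *Col5a1*, named after their values were seen, passed the adjusted p but stayed under the TPM minimum. *Col1a2* averaged 3.52 ± 0.732 TPM in control against 0.811 ± 0.244 TPM in *Yap* cKO (SD, n = 3), a log2FC of -2.16 (SE 0.22, edgeR adjusted p = 0.00236). *Col5a1* had 1.30 ± 0.0762 and 0.373 ± 0.141 TPM, a log2FC of -1.84 (SE 0.26, edgeR adjusted p = 0.0104). The related chains *Col1a1* (log2FC 0.08), *Col3a1* (-0.00) and *Col5a2* (0.26) overlapped between the groups, with edgeR adjusted p-values from 0.704 to 0.996. These chains had at most 0.729 TPM in any retina.

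In the list of receptors and targets of pigment epithelium-derived factor, all 8 genes were tested and 0 were called by the same 4 tests, with 1 gene at an unadjusted p below 0.05. Log2 fold changes lay between -0.28 for *Pnpla2*, the lipase proposed as its receptor, and 0.13 for *Plxdc2*, another proposed receptor. *Rpsa*, the laminin receptor gene, had a log2FC of -0.20 (SE 0.09, edgeR adjusted p = 0.224).

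**Figure D4:**
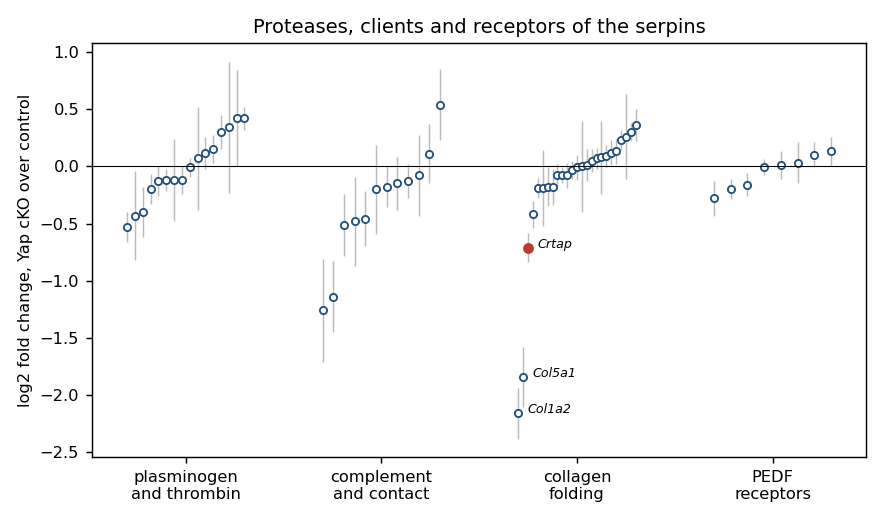
Log2 fold change of *Yap* cKO over control retinas for the tested genes of the 4 lists, with grey bars for the standard error, the called gene filled in red and the genes that passed the adjusted p named. *Crtap* (-0.71) is the 1 called gene, and *Col1a2* (-2.16) and *Col5a1* (-1.84) lie lowest.

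Markers of cells that border the retina were examined beside the serpins. The 6 markers of the ciliary margin summed to between 80.5 and 96.6 TPM in control and to 26.0, 46.1 and 28.9 TPM in *Yap* cKO retinas. *Optc* carried most of this difference and was the 1 called gene of 5 tested, all of them lower. The 5 markers of melanin pigment cells summed to between 70.6 and 77.9 TPM in control and to 16.7, 47.7 and 26.1 TPM in *Yap* cKO retinas. All 5 were lower, and 1 (*Pmel*) was called. In both lists YR713 was the *Yap* cKO retina closest to the controls, as it was for *Serping1* and *Serpina3n*. For *Serpine3* it was instead the farthest from them. The order of the 3 *Yap* cKO retinas was not tested. None of the markers in either list was at 0 in any retina. The 5 markers of the retinal pigment epithelium summed to between 620 and 686 TPM in control and to 193, 357 and 668 TPM in *Yap* cKO retinas, with 0 of 5 called by edgeR's quasi-likelihood test, its likelihood ratio test, DESeq2 or limma-voom (1 at an unadjusted p below 0.05). Among the *Yap* cKO retinas only YR714 reached the control level of this sum. The 9 Müller glia markers summed to between 4490 and 4810 TPM in control and between 4000 and 4550 TPM in *Yap* cKO retinas. *Glul* and *Rlbp1* made up most of this sum (means of 3020 and 936 TPM in control). Of the 9 genes 4 were higher and 5 lower, and 0 were called by the same 4 tests (4 at an unadjusted p below 0.05). *Rlbp1* was lower without overlap (log2FC -0.36), while *Kcnj10* (0.28) and *Crym* (0.15) were higher without overlap. The sum of 7 fibroblast markers overlapped between the groups (28.0 to 38.6 TPM against 26.9 to 36.0 TPM). *Mgp* and *Pdgfra* made up most of it, and 1 of the 5 tested, *Col1a2*, passed the adjusted p (4.48-fold lower, edgeR adjusted p = 0.00236) and did not overlap. *Lum* was at 0 in all *Yap* cKO retinas and in control YR613. The part of these other cells in the serpin differences was not tested. In whole retinas, fewer cells of a type and less RNA per cell cannot be told apart.

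**Figure D5:**
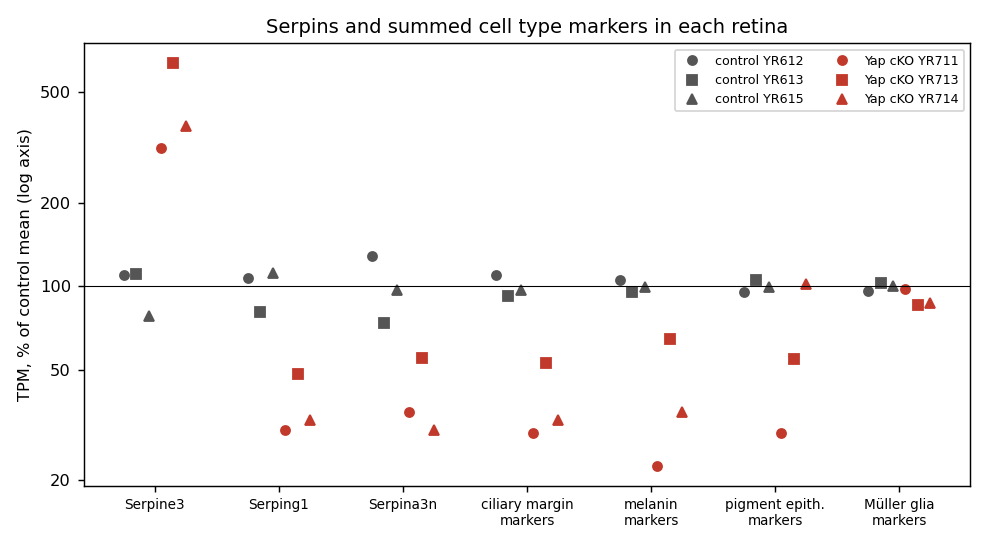
TPM in each retina as a percentage of the control mean (log axis) for *Serpine3*, *Serping1*, *Serpina3n* and the summed markers of 4 cell types, with control retinas in grey and *Yap* cKO retinas in red. In *Yap* cKO retinas *Serping1* lies between 30.4% and 48.5%, *Serpina3n* between 30.4% and 55.1% and the ciliary margin markers between 29.7% and 52.8%, while *Serpine3* lies between 315% and 636%.

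The level of genes in a retina, set against the mean over all 6, followed exonic length in opposite directions in single retinas. Spearman's rho across the tested genes was -0.413, 0.172 and -0.405 in the control retinas. In the *Yap* cKO retinas it was 0.396, 0.385 and -0.151, so the trend was partly aligned with genotype. *Serpine3* is short, with 1402 exonic bases. After each retina was corrected for gene length its log2FC was 2.23, and those of *Serping1* and *Serpina3n* were -1.37 and -1.25. The tests rest on 3 retinas a group, and an exact two-sided permutation test of single genes could not give a p below 0.1 in this design.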

How the data were processed

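Gene counts of 6 mouse retinas were analysed, 3 control and 3 *Yap* cKO, grouped by their labels. The age is that of the study's methods. Paired-end reads of 40 bases from stranded libraries were aligned by the authors to GRCm38 with STAR (2.7.3a in the submitters' processing notes). Per the file header, featureCounts 1.6.2 then counted exonic fragments by gene with strand setting 2 and annotation release 98. The deposited values are raw counts, 1 column per retina, with the exonic length of each gene. No option for multi-mapping or shared fragments was set.

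Symbols were added by gene identifier to 55154 of the 55421 genes. After filterByExpr and TMM normalization, *Yap* cKO retinas were compared with control retinas by the quasi-likelihood test of edgeR 4.0.16 in R 4.3.3 (common dispersion 0.0126), and p-values were adjusted over 16575 genes by the Benjamini-Hochberg method. The criteria of the study's methods were used (adjusted p of at most 0.05, fold change of at least 1.5, mean TPM of at least 5 in 1 group). TPM was computed from counts and exonic lengths, and a standard error is the log2FC divided by the root of its F statistic. No covariate was fitted, since neither the labels nor the study name a batch, litter or sex per retina. The steps were tested on simulated data.

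The 15 alternatives were DESeq2 size factors, library size only, no filter on low counts, edgeR's likelihood ratio test, DESeq2 1.42.0, limma-voom (limma 3.58.1), a loess correction for gene length (span 0.3), no TPM minimum, no fold change minimum, and 6 fits that each left out 1 retina. The members and lists were chosen with earlier results of these data known. Named genes were the 7 members, other serpins that were called or reached 5 TPM, called genes and 12 fixed partners of the 4 lists, genes within 100 kb of *Serpine3* and the 5 nearest profiles. Marker lists also covered rods, endothelium, pericytes, microglia, astrocytes and lens. Promoter windows came from RefSeq (GRCm38.p6). Protein sequences were not analysed here. Of the genes listed, 1 tested serpin and 1 marker gene are not reported here.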

Additional observations from a re-analysis of the deposited data

How the results depend on the processing

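No paired analysis was possible because neither the labels nor the study give the litter of each retina. The count of called genes was 132 with the main fit used here. At the same thresholds the study reports a larger count from edgeR, and does not name which edgeR test was used. The count here was 263 with DESeq2's Wald test, 291 with the likelihood ratio test and 369 with no filter on low counts. It ran from 38 (without control YR615) to 516 (without control YR613) with each retina left out. Among the 7 serpins the count of calls was 2 under each of the 9 other alternatives. It ran from 0 (without control YR615) to 2 with each retina left out, with 1 without control YR612. Dropping the TPM or fold change minimum cannot end a call. Every fit used the retinas from which the list was chosen, so these counts support nothing. The call of *Serpine3* was lost without control YR615 alone, and that of *Serping1* without either control YR612 or control YR615. Among the other serpins the count was 2 with no TPM minimum, and from 0 to 1 with each retina left out. Among the partner genes the count was 0 with the length correction and 3 with no TPM minimum, and from 0 to 2 with each retina left out. Of the 91 refitted log2FC values of the 7 serpins, all moved by less than the spread between retinas within the groups. Refits of the same retinas can hardly move a value further than that spread, so nothing is read from this. With each retina left out *Serpinf1* ran from -0.01 to 0.19. The log2FC changed sign for 4 other genes that were not called. With the length correction it was -0.14 for *Lrp1* and -0.19 for *Ints6*, and for *Fam124a* it was -0.01 with library size only and -0.0018 with no filter. With each retina left out it ran from -0.71 to 0.09 for *Plau*, from -0.08 to 0.06 for *Fam124a* and from -0.0089 to 0.15 for *Ints6*. The cause of these changes was not tested. Serpins under about 5 TPM rest on few fragments, which limits what differences could be detected.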

Other observations

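Among the 4 astrocyte markers, which bear on *Serpina3n* as a gene of reactive glia, 2 were higher and 2 lower in *Yap* cKO retinas. The 1 called was *Aldh1l1*, a folate enzyme also present in Müller glia. It stood at 15.8, 17.1 and 15.7 TPM in control and at 9.74, 10.1 and 9.43 TPM in *Yap* cKO retinas, a log2FC of -0.79 (SE 0.09, edgeR adjusted p = 0.00437). *Gfap*, the intermediate filament gene of reactive glia, averaged 43.8 ± 9.86 TPM (SD, n = 3) in control retinas and, in *Yap* cKO retinas, 36.3 ± 6.28 TPM. Its groups overlapped (log2FC -0.33, SE 0.19, edgeR adjusted p = 0.333), and control YR613 was the lowest control retina at 33.4 TPM, as it was for *Serpina3n* and *Serping1*. *S100b* was higher in *Yap* cKO retinas without overlap (log2FC 0.12, SE 0.10, edgeR adjusted p = 0.491). *Pax2* was higher with overlap (log2FC 0.17, SE 0.35, edgeR adjusted p = 0.803).

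Summed marker levels of the remaining cell types overlapped between the groups for endothelium (191 to 202 TPM in control and 168 to 222 TPM in *Yap* cKO retinas), pericytes (90.2 to 92.8 and 80.8 to 106 TPM) and microglia (121 to 139 and 117 to 122 TPM). For lens markers, of which 3 of 5 were tested and 0 were called by edgeR's quasi-likelihood test, its likelihood ratio test, DESeq2 or limma-voom (3 at an unadjusted p below 0.05), the sums were between 3.47 and 11.8 TPM in control and between 1.90 and 2.79 TPM in *Yap* cKO retinas. The sum of 11.8 TPM was that of control YR615, where *Cryaa* had 90 counts, against 10 in YR612 and 12 in YR613. Control YR612 and YR613 summed to 5.63 and 3.47 TPM, so these levels rest on few fragments.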
